A study of Mus musculus with 32 samples.

Results

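The fibrillar collagens are the genes for the chains of collagen types I, III, V and XI. The 7 genes Col1a1, Col1a2, Col3a1, Col5a1, Col5a2, Col5a3 and Col11a1 were taken by name from the 21829 mouse genes of the deposited table, and each passed the filter on low counts. PolyA RNA was measured in EL08-1D2, an established line of mouse mesenchymal stroma, in 16 libraries of untreated and 16 of azacitidine-treated cells (n = 16 per group below unless another n is given). Azacitidine is a cytidine analogue that is built into nucleic acids and traps DNA methyltransferases, so that DNA methylation is lost as cells divide. Both groups are the same line and are labelled only as without or with the drug, and dose, duration and passage are not given in the sources used here. The values are unique molecular identifiers (UMIs), each counting 1 cDNA molecule once. Whether each library had its own culture is not stated, and p-values below therefore reflect only how far these libraries vary, which may be technical.

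A fibrillar collagen molecule is a rope of intertwined chains that is secreted with extra ends and packs into fibrils once these are cut off. Type I, built from the products of Col1a1 and Col1a2, is the main collagen of bone, tendon and skin, and type III, built from the Col3a1 product alone, runs through the same fibrils in soft tissues. Types V and XI are minor partners that sit inside type I and type II fibrils and set how fibrils start and how thick they grow. Stromal cells are a main source of this scaffold in the tissues that hold blood-forming cells.

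Libraries held between 818619 and 3210801 mouse UMIs without and between 1226861 and 5039721 with azacitidine. Of 11 stromal marker genes 10 were tested, among them Vim (1985 and 2008 CPM, that is UMIs scaled to a common library size, without and with the drug) and Pdgfra (62.4 and 61.5 CPM), and Thy1 had 0 and 26 UMIs in all; of the 10 only Vcam1 passed, rising from 228 to 260 CPM (log2 fold change 0.20, edgeR adjusted p = 0.014). Epcam of epithelium had 0 and 1 and Ptprc of blood cells 1 and 4 UMIs, while Col2a1, the collagen that defines cartilage, had 3 and 3. Summed over 5 epithelial markers the level was 0.336 to 12.1 CPM without and 5.86 to 38.9 CPM with the drug, where Krt19 rose (1.98 to 10.5 CPM), and over 6 blood markers, with Hbb-bs at 0, it was 10.1 to 22.3 and 21.6 to 36.3 CPM, where Cd68 rose (8.12 to 16.0 CPM). Summed over 5 markers of smooth muscle or myofibroblasts it was 391 to 637 and 221 to 647 CPM, where Tagln fell (13.9 to 6.93 CPM). The part of these genes in the collagen values was not tested. Libraries whose replicate numbers lay in the same run of 4 (1 to 4, 5 to 8, 9 to 12 and 13 to 16) were more alike than others, with a mean correlation of 0.21 within and -0.13 between runs across tested genes after removal of the group means. The labels name no batch. Untreated numbers 1 and 2 and treated numbers 1, 2 and 4 stood apart on the first principal component (scores of 0.258 to 0.419, against at most 0.103 in the other 27 libraries).

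Of the 7 genes 5 fell with azacitidine and 0 rose, against 2.00% of all tested genes that fell and 3.65% that rose (adjusted p under 0.05 by Benjamini-Hochberg over 9344 genes in edgeR's quasi-likelihood test). The 5 were Col1a1, Col1a2, Col3a1, Col5a1 and Col5a3. Col5a2 and Col11a1 also had lower means but did not pass. The median log2 fold change was -0.39 over the 7 genes and 0.00 over all tested genes. Together the 7 genes held 0.791% ± 0.086 (SD) of the mouse UMIs without and 0.553% ± 0.081 with the drug. Of this share the lowest untreated library had 0.659% and the highest treated library 0.689%, so the groups overlapped slightly. In bulk RNA, fewer cells that express a gene and less RNA per cell cannot be told apart.

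**Figure D1:**
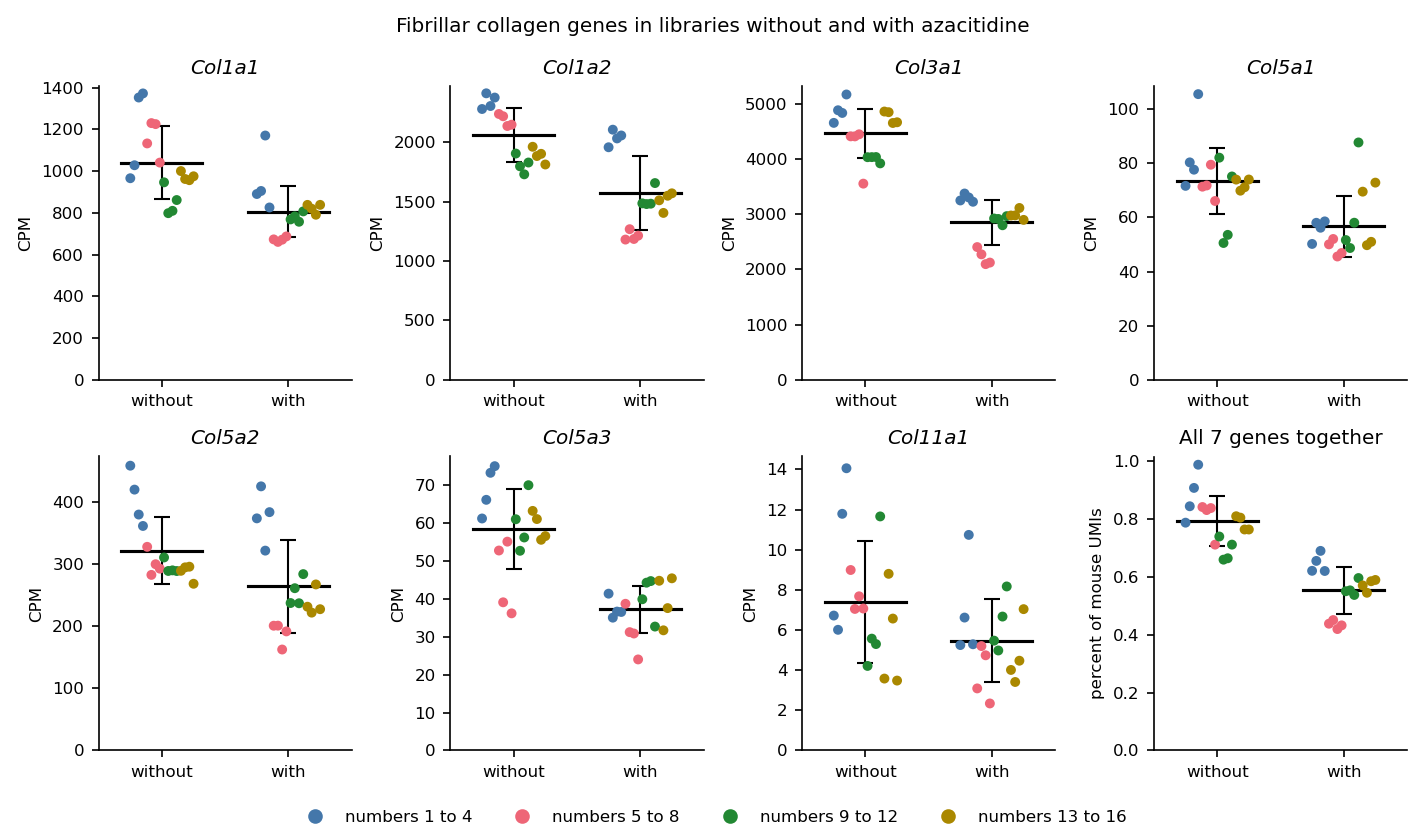
CPM of each of the 7 genes, and the percentage of mouse UMIs that they took together, on linear axes from 0, in the libraries without and with azacitidine. Points are libraries in order of replicate number and coloured by run of 4 numbers, long bars are means and whiskers 1 SD. The 2 groups of Col3a1 do not overlap (lowest untreated 3551, highest treated 3373 CPM), and those of every other gene and of the joint percentage do.

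Col3a1, the type III chain (ENSMUSG00000026043, chromosome 1, 45311538 to 45349706, mm10, plus strand, 51 exons), separated the groups completely. Untreated libraries ran from 3551 over a median of 4546 to 5164 CPM and treated ones from 2095 over 2942 to 3373 CPM. Each of the 16 treated libraries lay below each untreated one, which held for 1 of the 9344 tested genes (0.0107%), namely Col3a1 itself, while 0.278% lay higher without overlap. The log2 fold change was -0.65 (SE 0.067, edgeR adjusted p = 6.24e-09), a decrease to 0.639 of the untreated level. Counting noise was small here, as each library held between 3627 and 15468 UMIs of Col3a1.

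The promoter of Col3a1 is shown with those of Col5a3, the other gene with a similar decrease, and of Col5a1, because the 3 differ in CG pairs, the sites at which mammalian DNA is methylated. Each sequence gives the 250 bases before the RefSeq start (GRCm38.p6, 5′ to 3′ on the gene's strand). Capitals mark, on either strand, the letters CCAAT known from NF-Y sites, the letters TATAAA known from the TATA box, the letters GGGCGG known from Sp1 sites and the letters CAGAC known from SMAD sites.
Col3a1, chr1:45311288-45311537, plus strand: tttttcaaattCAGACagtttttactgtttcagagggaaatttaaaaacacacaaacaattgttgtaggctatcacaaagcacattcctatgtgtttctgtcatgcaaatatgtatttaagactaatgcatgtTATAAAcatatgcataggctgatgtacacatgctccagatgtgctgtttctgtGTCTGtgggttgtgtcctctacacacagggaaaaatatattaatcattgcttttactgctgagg
Col5a3, chr9:20815068-20815317, minus strand: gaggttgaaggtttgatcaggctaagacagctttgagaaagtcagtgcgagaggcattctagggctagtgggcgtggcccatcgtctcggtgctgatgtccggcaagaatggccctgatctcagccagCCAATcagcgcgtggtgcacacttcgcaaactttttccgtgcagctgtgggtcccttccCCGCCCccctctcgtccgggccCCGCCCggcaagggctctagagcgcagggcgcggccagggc
Col5a1, chr2:27886175-27886424, plus strand: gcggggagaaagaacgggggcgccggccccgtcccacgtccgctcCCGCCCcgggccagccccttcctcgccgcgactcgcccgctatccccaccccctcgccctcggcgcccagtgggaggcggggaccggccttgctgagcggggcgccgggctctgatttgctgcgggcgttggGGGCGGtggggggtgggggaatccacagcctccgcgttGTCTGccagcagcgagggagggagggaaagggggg
The Col3a1 stretch held 0 CG pairs, that of Col5a3 17 and that of Col5a1 28, against a median of 6 over 32851 RefSeq promoters of the same length. RefSeq promoters were found for 5 of the 7 genes, and those of Col1a2 and Col11a1 held 11 and 7 CG pairs. The 3 shown were thus chosen by their counts and include the lowest and the highest of the 5. Whether CG pairs bear on the decrease was not tested. CCAAT was found before Col5a3 (122 bases before the start), Col1a2 (109) and Col11a1 (79, on the other strand), and occurs in 33.8% of all promoters. TATAAA was found before Col3a1 only (117 bases before the start; 12.4% of all), GGGCGG 2 times before each of the other 4 (32.7% of all) and CAGAC before Col3a1, Col1a2, Col5a1 and Col11a1 (42.2% of all). A match describes letters and is no evidence of binding, and methylation was not measured.

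Both type I chains were lower with the drug. Col1a1 (ENSMUSG00000001506, chromosome 11, 94936224 to 94953042, mm10, plus strand, 51 exons) ran from 798 over 988 to 1372 CPM without and from 661 over 799 to 1170 CPM with the drug. Of the 16 treated libraries 8 lay below every untreated one and 15 below the untreated median. Its log2 fold change was -0.37 (SE 0.077, edgeR adjusted p = 0.0014). Col1a2 (ENSMUSG00000029661, chromosome 6, 4504814 to 4541544, mm10, plus strand, 52 exons) ran from 1729 over 2048 to 2410 CPM without and from 1180 over 1498 to 2105 CPM with azacitidine. The 4 highest treated libraries overlapped the untreated range and the other 12 lay below it. Its log2 fold change was -0.39 (SE 0.079, adjusted p = 0.0010).

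Type V molecules are made mostly of chains from Col5a1 and Col5a2, and Col5a3 gives an alternative chain found in some tissues. Col5a3 (ENSMUSG00000004098, chromosome 9, 20770050 to 20815067, mm10, minus strand, 67 exons) ran from 36.2 over 58.8 to 75.0 CPM without and from 24.0 over 37.1 to 45.4 CPM with the drug. All 16 treated libraries lay below the untreated median, and 2 untreated libraries fell into the treated range. Its log2 fold change was -0.65 (SE 0.089, edgeR adjusted p = 1.65e-06). Col5a1 (ENSMUSG00000026837, chromosome 2, 27886425 to 28039514, mm10, plus strand, 66 exons) ran from 50.5 over 72.8 to 105 CPM without and from 45.5 over 51.8 to 87.6 CPM with it. The groups overlapped widely, but 15 treated libraries lay below the untreated median, with a log2 fold change of -0.37 (SE 0.086, adjusted p = 0.0040). An antisense transcript within Col5a1, 2810430I11Rik, had 77 UMIs over all libraries; whether strand was kept is not stated in the sources used here.

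Col5a2 (ENSMUSG00000026042, chromosome 1, 45374321 to 45503282, mm10, minus strand, 54 exons) was spread more widely with the drug. It ran from 269 over 296 to 459 CPM without and from 163 over 238 to 426 CPM with azacitidine, with a log2 fold change of -0.28 (SE 0.11, edgeR adjusted p = 0.15). The 2 untreated libraries that stood apart had 421 to 459 CPM against at most 380 in the other 14, and the 3 treated ones had 374 to 426 CPM against at most 322 in the other 13. Without these 5 libraries Col5a2 passed the test at -0.38 (edgeR adjusted p = 0.00059). Col11a1, a type XI chain that is also found in type V molecules (ENSMUSG00000027966, chromosome 3, 114030540 to 114220718, mm10, plus strand, 67 exons), was low, with 4 to 28 UMIs per library. It ran from 3.48 over 6.88 to 14.1 CPM without and from 2.34 over 5.22 to 10.7 CPM with the drug, a log2 fold change of -0.42 (SE 0.18, adjusted p = 0.21). Its coefficient of variation of 40.9% among untreated libraries lay close to the 32.5% that counting alone gives. The other fibrillar collagen genes were below the filter: Col2a1 had 3 and 3, Col24a1 3 and 6, Col11a2 11 and 26, and Col27a1 34 and 67 UMIs in all libraries without and with azacitidine.

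Ratios within a library do not depend on how libraries are scaled, and 6 of them were compared (two-sided permutation tests with 100000 resamples, adjusted over the 6). Labels were permuted over all libraries without regard to runs, and ratios of sums over runs were not tested. UMIs are not divided by transcript length here, so the change of a ratio is read and not its level. Col3a1 fell further than Col1a1. The log2 ratio of Col3a1 to Col1a1 was 2.11 ± 0.21 without and 1.82 ± 0.13 with azacitidine, a difference of -0.29 (SE 0.062, permutation p = 0.00012, adjusted p = 0.00036), and all 16 treated libraries lay below the untreated median. The difference was -0.26, -0.14, -0.34 and -0.42 in the 4 runs. It also fell further than its neighbour Col5a2. Both genes lie on chromosome 1, point toward each other and are 24.6 kb apart. Their log2 ratio went from 3.80 ± 0.21 to 3.46 ± 0.23, a difference of -0.34 (SE 0.077, permutation p = 6.0e-05, adjusted p = 0.00036), lower than the untreated median in all 16 treated libraries and by -0.46, -0.24, -0.25 and -0.39 in the 4 runs.

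For the type I chains no difference in ratio passed the test. Col1a1 to Col1a2 stood at -0.99 ± 0.15 without and -0.95 ± 0.16 with the drug on the log2 scale, a difference of 0.04 (SE 0.054, permutation test, adjusted p = 0.67). By run it was -0.11, 0.07, 0.12 and 0.08, so numbers 1 to 4 went the other way. Without numbers 1 to 4 it was 0.09 (permutation test, adjusted p = 0.053). Col5a1 to Col5a2 differed by -0.06 (SE 0.12, adjusted p = 0.75) and Col11a1 to Col5a1 by -0.04 (SE 0.17, adjusted p = 0.81), with wide errors for both. Col5a3 to Col5a1 went from -0.33 ± 0.27 to -0.60 ± 0.30, a difference of -0.27 (SE 0.10, adjusted p = 0.024). In runs this difference was -0.30, 0.02, -0.47 and -0.31, and it did not pass after thinning of all libraries to 818619 UMIs (permutation test, adjusted p = 0.35) or without numbers 1 to 4 (0.092), 9 to 12 (0.074) or 13 to 16 (0.15), or without the 5 libraries that stood apart (0.065).

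**Figure D2:**
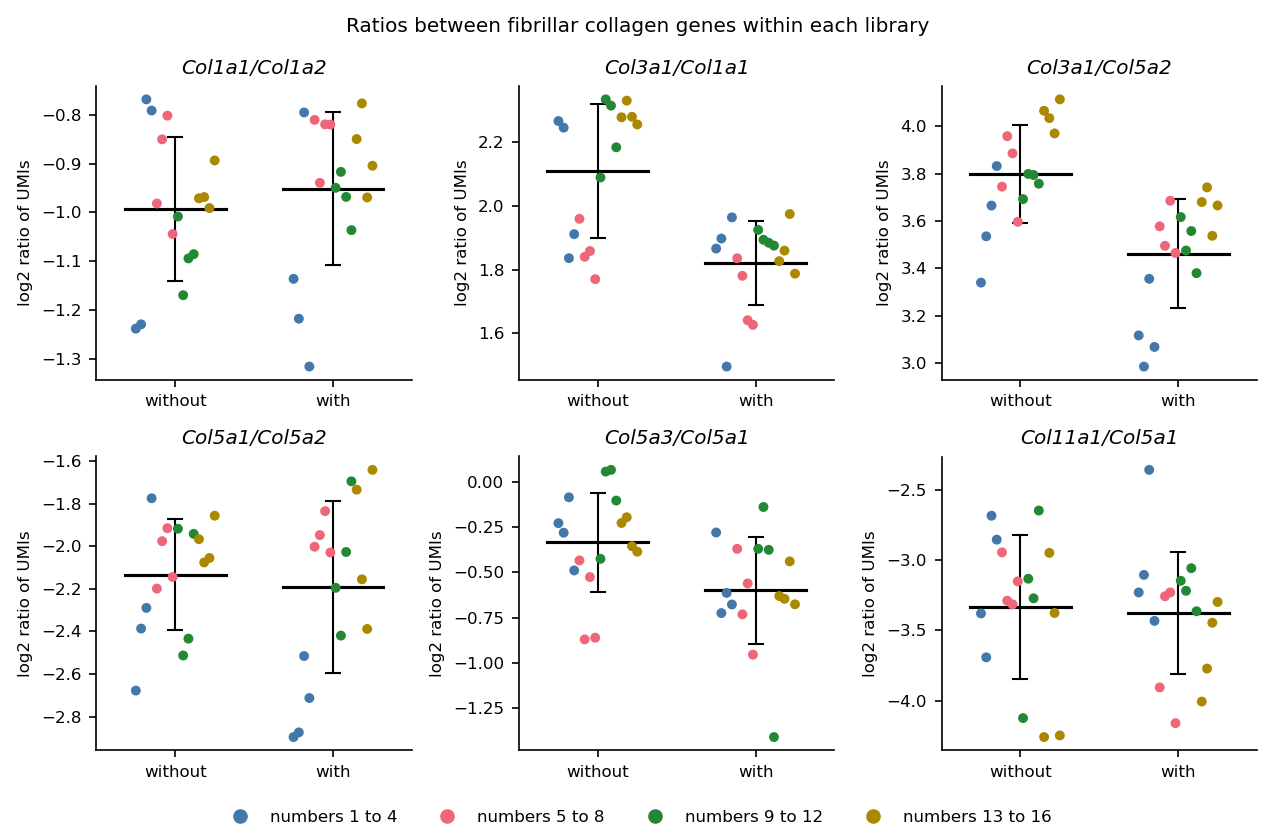
Log2 ratio of the UMIs of 2 genes within each library (0.5 added to both counts), without and with azacitidine. Points are libraries coloured by run of replicate numbers, long bars are means and whiskers 1 SD; Col3a1/Col1a1 goes from 2.11 to 1.82 and Col3a1/Col5a2 from 3.80 to 3.46, while Col1a1/Col1a2 stays near -1.

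The decrease had the same direction in every run but not the same size. All 7 genes were lower with the drug in each of the 4 runs, as were 11.7% of all tested genes. In numbers 1 to 4, 5 to 8, 9 to 12 and 13 to 16 the median log2 fold change of the 7 genes was -0.39, -0.78, -0.21 and -0.33. Within the runs edgeR called 5, 6, 3 and 3 of them as lower, against 3.67%, 2.49%, 0.235% and 0.803% of all genes. Col1a2, Col3a1 and Col5a3 were called in each run. Of all genes at most 0.235%, the share called as lower in numbers 9 to 12, can have been called as lower in each run.

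Numbers 5 to 8 carried the largest change of the type I chains. Col1a2 went from 2184 ± 51 to 1212 ± 40 CPM there (n = 4 against 4), a log2 fold change of -0.85 (SE 0.062), and differed by -0.20, -0.25 and -0.33 in the other runs. In all 4 runs its treated libraries lay below all untreated libraries of the run. Col1a1 differed by -0.78 in numbers 5 to 8 and by -0.31, -0.13 and -0.24 in the others. Col3a1 was the steadier, with -0.57, -0.92, -0.47 and -0.67, and no overlap in any run. How many of all tested genes also lay without overlap in each run was not counted. Col5a3 had its largest value in numbers 1 to 4 (-0.86) and lay between -0.55 and -0.59 in the rest. Whether the effect depends on the run was tested in edgeR (interaction term), and 4 of the 7 genes passed, against 3.02% of all tested genes. These were Col1a2 (adjusted p = 2.27e-06), Col1a1 (0.0066), Col5a2 (0.014) and Col3a1 (0.015), the last of which missed the threshold when genes of low counts were kept (0.15). That fit without a filter called the same number of the 7 genes for azacitidine, 5, against 0.651% of all genes lower and 3.29% higher.

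Without numbers 5 to 8, Col3a1 (-0.57, edgeR adjusted p = 2.25e-08) and Col5a3 (-0.67, 3.26e-07) were still called, with 1.21% of all genes lower and 2.89% higher. Col1a1 (-0.23, adjusted p = 0.14), Col1a2 (-0.25, 0.078) and Col5a1 (-0.31, 0.11) were then not called. When the 4 libraries of each run and group were summed, giving 4 sums against 4, edgeR called 0 of the 7 genes, and of all genes 0.0244% as lower and 0.855% as higher, and of the 7 Col5a3 and Col3a1 came closest (adjusted p = 0.051 and 0.064). With a term for the run the sums gave 3 of the 7, namely Col3a1, Col5a3 and Col5a1 (adjusted p = 0.00052, 0.00037 and 0.048), with 0.700% of all genes lower and 2.56% higher. Col1a2 and Col1a1 then stood at 0.060 and 0.099.

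**Figure D3:**
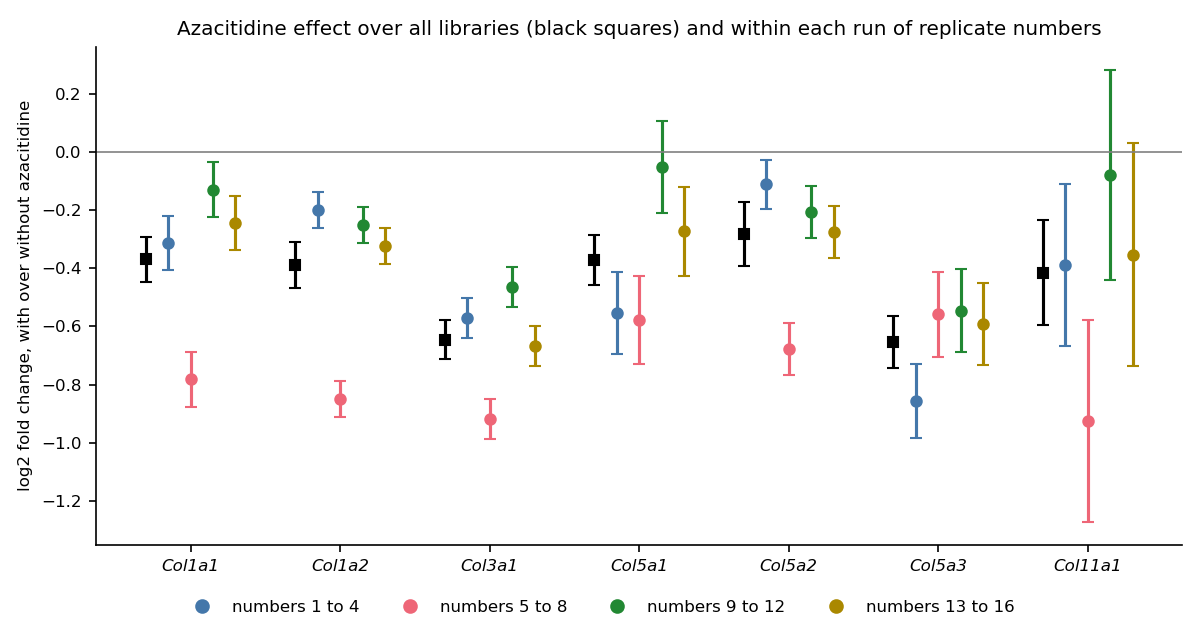
Log2 fold change (with over without azacitidine) of each gene over all 32 libraries (black squares) and within each run of 4 replicate numbers (coloured points); bars are 1 SE. All points lie below 0. Those of numbers 5 to 8 are the lowest for every gene but Col5a3, namely Col1a1 (-0.78), Col1a2 (-0.85), Col3a1 (-0.92), Col5a1 (-0.58), Col5a2 (-0.68) and Col11a1 (-0.92).

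Spike-in RNA of known amount (ERCC) gives a second scale, on which the cells' own RNA may change in total. The labels do not say at which step it was added. It took 0.124% ± 0.036 of the UMIs without and 0.107% ± 0.039 with azacitidine. Scaled by it, the median of all tested genes rose by 0.31 on the log2 scale, and fold changes are therefore also given against that shift. Col3a1 then stood at -0.33 (SE 0.21) and Col5a3 at -0.31 (SE 0.21), which is -0.64 and -0.62 against the median gene. Taking off the median largely returns library scaling, where both stood at -0.65, so values against the median are no separate evidence. On the spike-in scale itself Col1a1, Col1a2, Col5a1 and Col11a1 lay at -0.06, -0.08, -0.04 and -0.12, and Col5a2 turned to 0.02. With this scale edgeR called 0 of the 7 genes (lowest adjusted p = 0.26, for Col3a1) and of all genes 0.0107% as lower and 3.79% as higher. The decreases above are thus decreases relative to other transcripts.

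The spike-in scale was the noisier of the 2. The 7 genes together had 6.80 ± 1.68 UMIs per spike-in UMI without and 5.90 ± 2.48 with the drug. Col3a1 alone ranged from 1.03 to 5.68 UMIs per spike-in UMI among the treated numbers 5 to 8, in libraries where its CPM ran from 2095 to 2404. The median of all tested genes differed by 0.51, 0.25, -0.18 and 0.63 in the 4 runs on this scale, and that of the 7 genes by 0.06, -0.52, -0.37 and 0.34. The interaction of run and azacitidine was passed by 0 of the 7 genes with spike-in scaling (edgeR, 0.225% of all genes).

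**Figure D4:**
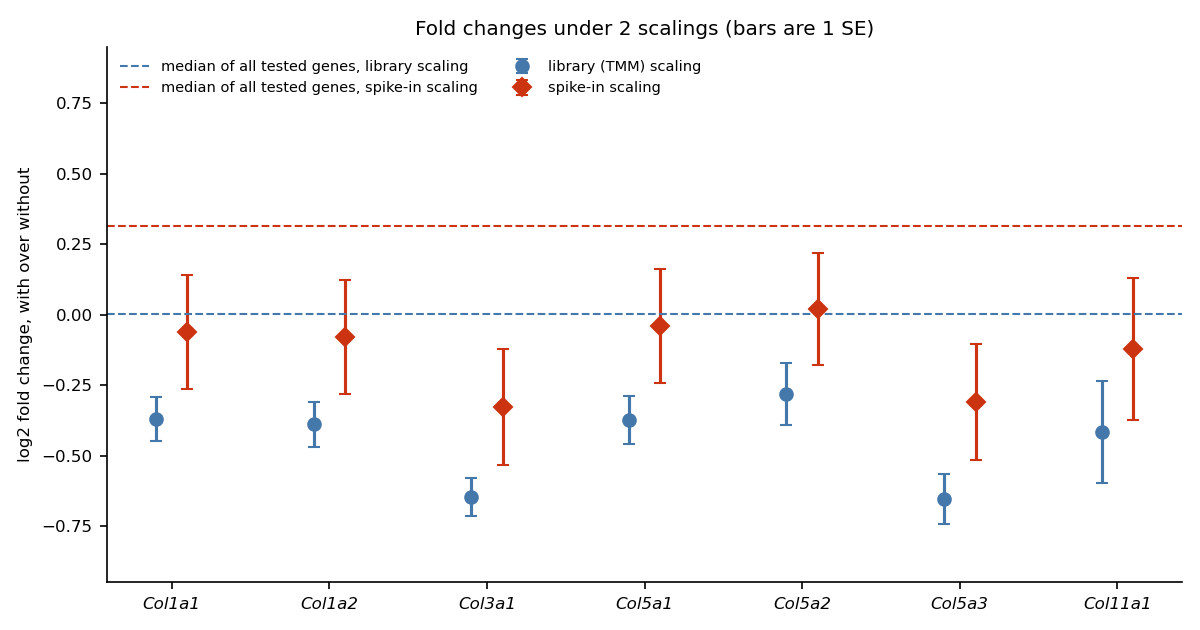
Log2 fold change (with over without azacitidine) of the 7 genes with library (TMM) scaling, blue, and with spike-in scaling, red; bars are 1 SE and dashed lines the median of all tested genes on each scale (0.00 and 0.31). Col3a1 moves from -0.65 to -0.33 and Col5a2 from -0.28 to 0.02, and every gene stays below the dashed line of its scale.

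Of 20 tested genes that fold and modify procollagen in the endoplasmic reticulum 1 rose and 0 fell, and their median change was 0.01 on the log2 scale. In the same edgeR test 2.00% of all tested genes fell and 3.65% rose. Whether a list here or below departs from these shares was not tested. At such shares few or no calls, as in the folding, export and TGF-beta lists, do not set a list apart from other genes. Serpinh1, the collagen chaperone HSP47, stood at 2264 ± 278 and 2188 ± 310 CPM without and with the drug. P4hb and P4ha1, subunits of prolyl 4-hydroxylase, stood at 2260 ± 206 and 2221 ± 164 and at 943 ± 105 and 853 ± 91 CPM, and P4ha2, another catalytic subunit, at 1106 ± 263 and 945 ± 223 CPM; none of these passed (edgeR adjusted p = 0.79, 0.87, 0.15 and 0.34). Ppib, a prolyl isomerase, and Plod2, the lysyl hydroxylase of the chain ends, had log2 fold changes of 0.04 and 0.09 and did not pass either. Plod1, the lysyl hydroxylase of the helix, was the gene that rose, from 171 ± 15 to 212 ± 28 CPM (log2 fold change 0.31, SE 0.059, adjusted p = 0.00032). Of 12 tested genes of procollagen export 0 passed (edgeR, median 0.02), with Mia3, the cargo receptor TANGO1, at 65.0 ± 9.2 and 66.6 ± 11.2 CPM.

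Of 9 tested genes that trim the ends of procollagen or cross-link it 3 fell and 0 rose, with a median of -0.04. All 3 encode lysyl oxidases, the enzymes that cross-link fibrils. The other tested lysyl oxidase genes, Loxl3 and Loxl4, had log2 fold changes of -0.04 and 0.05 and did not pass (edgeR adjusted p = 0.86 and 0.91). Lox fell from 540 ± 126 to 403 ± 81 CPM (log2 fold change -0.42, SE 0.11, edgeR adjusted p = 0.014), Loxl2 by 0.40 (SE 0.095) and Loxl1 by 0.31 (SE 0.068). Leaving out numbers 1 to 4 ended the calls of Lox and Loxl2 (edgeR adjusted p = 0.11 for both), and leaving out 5 to 8 that of Loxl1 (0.076). Lox also missed without the 5 libraries that stood apart (0.058), and Loxl2 with the summed runs and run term (0.088). With spike-in scaling Loxl1 stood at 0.01. Of the proteases that cut the ends, Bmp1 had a log2 fold change of 0.04 and Adamts2 of -0.08 (edgeR adjusted p = 0.90 and 0.94), and Adamts2 varied strongly among libraries (79.0 ± 57.9 CPM with the drug); without numbers 1 to 4 it was called (edgeR adjusted p = 0.0038). Pcolce, the enhancer of Bmp1, stood at 4312 ± 472 and 4516 ± 756 CPM.

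Genes whose products sit on collagen fibrils went both ways. Of 14 tested 3 rose and 2 fell (median -0.11). Lum, a proteoglycan that spaces fibrils, rose by 2.36 (SE 0.25), Thbs2 by 0.29 (SE 0.067) and Tgfbi by 0.48 (SE 0.14) on the log2 scale, and Fn1, on which fibrils assemble, and Fbln2 fell by 0.47 (SE 0.078) and by 0.25 (SE 0.075). Fbln2 lost its call after thinning (edgeR adjusted p = 0.078), on leaving out numbers 1 to 4 (0.11), 5 to 8 (0.24) or the 5 libraries that stood apart (0.051), and in the summed runs with a run term (0.080), and it stood at 0.04 with spike-in scaling. Fn1 lost it in the summed runs with a run term (0.078) and Thbs2 on leaving out 5 to 8 (0.066). Dcn, which binds type I fibrils, stood at 2124 ± 134 and 1884 ± 269 CPM and Sparc, a collagen-binding matricellular protein, at 2445 ± 506 and 2523 ± 884 CPM, both without a call. Dcn did pass on leaving out numbers 1 to 4 (edgeR adjusted p = 0.044), 5 to 8 (0.013) or the 5 libraries (0.034).

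Of 6 tested collagen receptors Ddr1, a receptor tyrosine kinase, fell from 35.7 ± 8.8 to 26.9 ± 3.7 CPM (edgeR adjusted p = 0.0076), although not without numbers 1 to 4 (0.059) or 5 to 8 (0.096). Ddr2 and Itga11, both receptors for fibrillar collagen, had log2 fold changes of 0.02 and 0.26 and did not pass, although Itga11 did on leaving out numbers 5 to 8 (edgeR adjusted p = 0.018). Of 10 tested genes of collagen degradation 1 fell, the protease inhibitor gene Timp3, by 0.22 (SE 0.057), and the list's median was 0.17. Timp3 lost its call on leaving out numbers 1 to 4 (edgeR adjusted p = 0.084) or 5 to 8 (0.26) and in the summed runs with a run term (0.22), and stood at 0.09 with spike-in scaling. Mmp14, a membrane collagenase, had a log2 fold change of 0.37 with an SE of 0.35. Of 29 tested genes of TGF-beta signalling, the main inducer of collagen transcription, and of collagen transcription factors 0 passed (edgeR, median 0.02). Among them Tgfbr2 stood at 42.7 ± 6.0 and 40.7 ± 5.0 CPM and Ccn2, a classical TGF-beta target, at 33.3 ± 16.8 and 24.5 ± 7.5 CPM (adjusted p = 0.18). Tgfb1 (25 and 35 UMIs in all) and Larp6, which binds collagen mRNAs (7 and 13 UMIs), were too low to be tested.

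**Figure D5:**
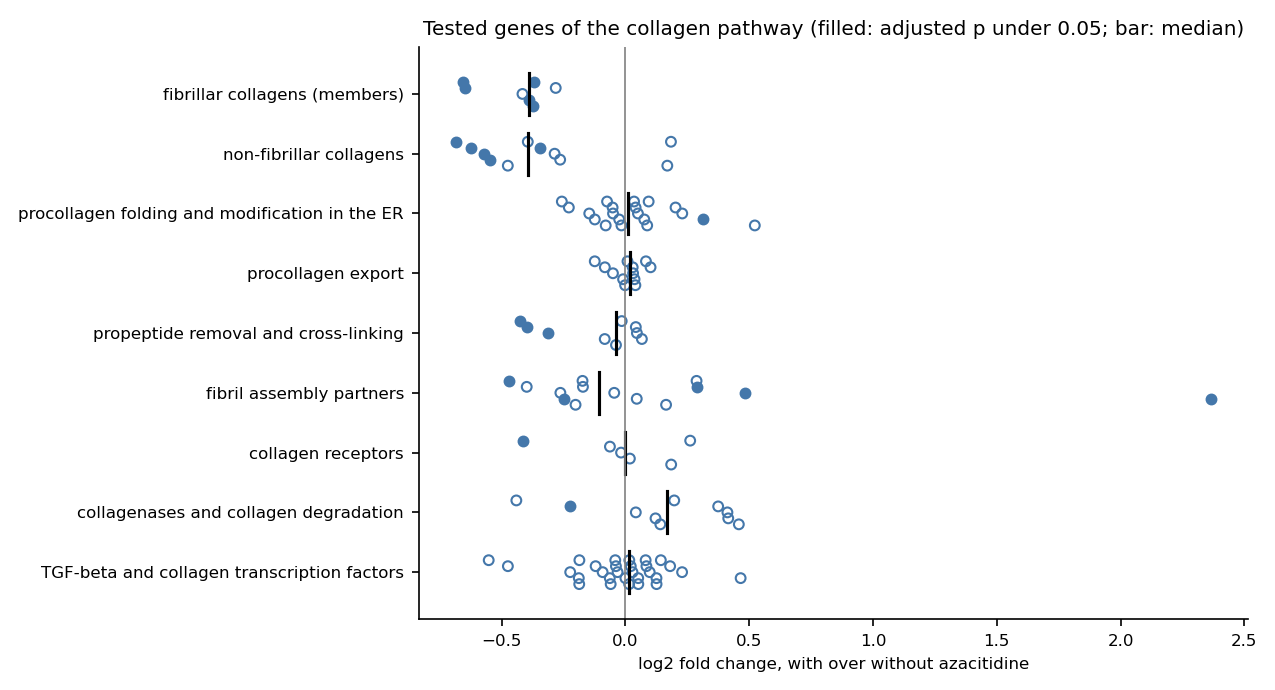
Log2 fold changes (with over without azacitidine) of tested genes in the 7 fibrillar collagen genes and 8 lists of the collagen pathway. Points are genes, filled where the adjusted p is under 0.05, and bars are medians; the fibrillar and the non-fibrillar collagens have medians of -0.39, and the folding and export lists of 0.01 and 0.02.

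Of 11 tested non-fibrillar collagen genes 5 fell and 0 rose, with a median of -0.39, where 2.00% of all tested genes fell. With spike-in scaling the median of these 11 was -0.05 and that of all genes 0.31. Those that fell were Col4a1, Col4a2, Col4a5 and Col4a6 of basement membranes and Col16a1, a collagen that binds to the surface of fibrils, which fell from 66.4 ± 8.7 to 52.5 ± 8.6 CPM (log2 fold change -0.34, SE 0.078, edgeR adjusted p = 0.0036) and stood at -0.02 with spike-in scaling. For 4 of the 7 genes the tested genes with the nearest profiles over the 32 libraries were listed. Nearness was the root mean square difference of the log2 CPM profiles, each centred on its own mean, with no test. For Col3a1 the 5 nearest tested genes were Col1a2 (0.19), Col4a2 (0.21), Adamts1 (0.21), Col5a3 (0.22) and Col1a1 (0.22), where the median gene stood at 0.47. A flat profile, with no change between libraries, would stand at 0.37 from Col3a1, 0.30 from Col1a2, 0.28 from Col1a1 and 0.35 from Col5a2. Genes that vary little can therefore also come near. For Col1a2 they were Col1a1 (0.15), Col5a2 (0.15), Loxl1 (0.15), Col6a1 (0.16) and C1qtnf6 (0.16), and for Col1a1 they were Col1a2 (0.15), Tmem185a (0.19), Loxl1 (0.19), Aebp1 (0.19) and Ccn4 (0.20). Col5a2 was nearest to the type VI chains Col6a1 and Col6a2 (both 0.13), then to Col1a2 (0.15), P3h4 (0.19) and Mmp23 (0.19). These profiles share the same libraries, and the part of treatment, run and library size in their likeness was not tested.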

How the data were processed

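RNA of EL08-1D2 was isolated with a spin column and made into pooled, barcoded cDNA libraries with UMIs, per the labels' protocols. STAR 2.4.0, bedtools 2.17.0 and the build mm10 are listed in the submitters' processing notes, while how UMIs were collapsed, the annotation and strand are not given in the sources used here. The authors deposited raw counts, namely UMIs per gene and library, with 68 spike-in lines that stayed out of library sizes. Symbols and positions are from GENCODE M21, with 21506 of 21829 identifiers matched, and promoters from RefSeq (GRCm38.p6). The main test was edgeR 4.0.16 (robust quasi-likelihood, TMM, default expression filter, treatment only) over all 32 libraries, adjusted over 9344 genes with a threshold of 0.05; CPM uses TMM sizes. Each SE was derived from the F statistic of its fold change. Effects by run are from 1 model with run and treatment. The members, lists, runs, the 5 libraries that stand apart and alternatives were chosen with earlier results of these data known. Genes outside the 7 were named by rule: up to 4 called per list in order of p and fixed key genes of the pathway. The rule also named other fibrillar collagens and the 5 nearest profiles. Krt19, Cd68, Tagln, Vcam1, the stromal markers, Col16a1, Fbln2, Loxl3 and Loxl4 were named after their values were seen. No pair of libraries within a group agreed within sampling noise (lowest chi-square per degree of freedom 1.13 and 1.11). On simulated counts of 9344 genes, 16 against 16, the share of changed genes recovered by edgeR was 81.9% at 1.5-fold, 98.6% at 2-fold and 100% at 4-fold. The simulated libraries were independent and lacked the likeness within runs that the data have. Changes below 1.5-fold, such as those of Col1a1, Col1a2, Col5a1, Col5a2 and Col11a1, were not simulated. These shares are therefore not the power of this design for those genes. R 4.3.3, limma 3.58.1, DESeq2 1.42.0, Python 3.11.15 and scipy 1.17.1 were used.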

Additional observations from a re-analysis of the deposited data

Results flagged for a closer look

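The size of the azacitidine effect differed between the 4 runs of replicate numbers for 4 of the 7 genes, by an interaction term in edgeR, adjusted over all tested genes. Of all tested genes 3.02% passed the same test. The adjusted p was 2.27e-06 for Col1a2, 0.0066 for Col1a1, 0.014 for Col5a2 and 0.015 for Col3a1. Col3a1 missed the threshold when genes of low counts were kept (edgeR interaction term, adjusted p = 0.15). In each of the 4 genes the effect was largest in numbers 5 to 8, at -0.85, -0.78, -0.68 and -0.92 on the log2 scale. With spike-in scaling none of the 4 passed this test (edgeR, 0 of 7 genes; lowest adjusted p over the 7 genes 0.73). What the runs were is not named in the labels.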

How the results depend on the processing

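Of the 7 genes 5 were called with all libraries. The count was 0 with sums over runs and with spike-in scaling, 3 with sums and a run term and 2 without numbers 5 to 8. In that order 0.0244%, 0.0107%, 0.700% and 1.21% of all tested genes were called as lower, against 2.00% in the main test. The count was between 5 and 6 in the other 16 alternatives. Among these, 91 of 9344 genes were called as lower without numbers 13 to 16 and 430 with a run term. The replicate block called 6 of the 7 genes and 897 genes in all, against 528 in the main test; with it Col5a2 passed (-0.31, edgeR adjusted p = 0.00054), but not in the summed runs with a run term (0.087). Equal numbers were not taken as pairs, since the correlation of their deviations ran from -0.29 to 0.83, was over 0.1 in 12 of 16 pairs and not in all, and was highest for the own number in 4. Over all genes the number was 993 with a run term, 108 with sums over runs, 930 with limma-voom and a correlation within runs, 860 without a filter on low counts, 283 after thinning, 324 without numbers 13 to 16 and 296 at an adjusted p under 0.01. Col5a2 turned to 0.021 with spike-in scaling. The ratio of Col5a3 to Col5a1 no longer passed at -0.19 after thinning, -0.26 without the 5 libraries that stand apart, -0.25 without numbers 1 to 4, -0.20 without 9 to 12 and -0.25 without 13 to 16. The ratios that did not pass changed sign for Col5a1 to Col5a2 without the 5 libraries (0.031) and without numbers 1 to 4 (0.077), and for Col11a1 to Col5a1 without numbers 5 to 8 (0.10). The log2 ratio of the group means of the 7 genes' share was -0.52 and moved to -0.21 with spike-ins. The interaction count was 0 with spike-in scaling, an alternative added after the data were seen. The cause of these shifts was not tested. Col11a1 was not tested after thinning. Counting noise gives a coefficient of variation of 32.5% for Col11a1.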

Other observations

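Among the other collagen genes Col23a1, a transmembrane collagen chosen, like the next 2, after its values were seen, was concentrated in the 5 libraries that stood apart. It had 124 UMIs in the 2 untreated and 503 in the 3 treated libraries of these, against 82 and 103 in the other 27. Its level was 13.7 to 41.6 CPM in the 5 and 1.10 to 13.2 CPM in the others. Col8a1, a short-chain collagen, ran from 136 to 238 CPM in the 5 and from 75.4 to 178 CPM in the others, with a log2 fold change for azacitidine of 0.17 (edgeR adjusted p = 0.63). The type VI chain Col6a1 ran from 779 to 918 CPM in the 5 and from 369 to 909 CPM in the others, and did not pass the test for azacitidine either (-0.29, edgeR adjusted p = 0.090), although it did without these 5 (0.012).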
